A study of Rattus norvegicus with 16 samples.

Results

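The Slc25 genes encode the mitochondrial carriers, and they were taken here as every transcript cluster whose platform annotation gave exactly 1 gene symbol beginning Slc25a and a digit. The rule found 40 genes among the 14557 genes tested, each with 1 cluster. All 40 matched a RefSeq gene of the rat assembly GRCr8 by Entrez ID with 0 symbols changed, 38 of them protein coding and 2 pseudogenes (Slc25a5-ps7 and Slc25a39-ps5). Of 48 carriers listed by substrate, 35 were measured. The other 13, among them Slc25a3, Slc25a6, Slc25a13, Slc25a16, Slc25a22, Slc25a23, Slc25a25, Slc25a30, Slc25a36, Slc25a40, Slc25a48 and Slc25a53, had no cluster that the rule accepts and were not analysed here. Another 5 members, among them Slc25a5-ps7, Slc25a39-ps5, Slc25a51l1 and Slc25a54, fell outside the substrate lists.

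RNA came from the plantaris, an ankle extensor of the hindlimb, of Sprague Dawley rats that the labels call retired breeders. Both Achilles tendons were cut out, which disables the larger ankle extensors and leaves the plantaris to carry their load until it hypertrophies. The groups were control muscle without overload (day 0) and muscle 3, 7 and 28 days after surgery, with 4 Affymetrix Rat Gene 2.1 ST arrays in each of the 4 groups. There was no sham-operated group, so load cannot be told apart from the operation. Replicates are numbered in the labels with no mention of separate animals, and p-values therefore reflect only how far these samples spread, a spread that may be technical.

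Mitochondrial carriers are proteins of the inner membrane that exchange metabolites between the cytosol and the matrix, each for a narrow set of substrates. In muscle they pass ADP in and ATP out, bring in phosphate, fatty acylcarnitines, amino acids and cofactors, and carry the malate and aspartate of the shuttle that moves reducing equivalents into mitochondria. A few members sit elsewhere, in the outer membrane or in peroxisomes.

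Levels are given on the log2 scale of the deposited table, and each difference is the later group's mean minus the earlier one's on that scale, with the SE of the limma fit (n = 4 arrays per group). A gene is said to have risen, fallen or been called where its Benjamini-Hochberg adjusted p, over all 14557 genes, was under 0.05. Levels of different genes are not set against each other, because each cluster has its own probes. Dim clusters are compressed on this scale, so a difference may be understated where the gene's lower group fell short of its arrays' median over clusters. That held for 9 members in every group, among them Slc25a18, Slc25a21, Slc25a31, Slc25a41, Slc25a47, Slc25a51l1, Slc25a52 and Slc25a54, of which 0 were called in any comparison with all arrays on the deposited scale. It also held for Slc25a43 at days 0, 7 and 28 and for Slc25a45 at day 0.

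The tissue carried muscle fibre markers on every array, and markers of macrophages and fibroblasts rose after the operation. Of 13 listed fibre markers 8 were measured and 0 lay under the array median. Each marker list is given as the log2 of its markers' summed linear values, in which the brightest markers weigh most. For fibre markers this lay between 15.94 and 15.97 at day 0 and between 15.50 and 15.76 at day 3. It lay between 15.76 and 15.92 at day 7 and between 15.84 and 16 at day 28. Macrophage markers, 11 of 14 measured, summed to 8.12 to 8.49, 12.19 to 12.65, 10.73 to 11.21 and 9.28 to 9.80 on the same days, and all 11 rose at day 3. Fibroblast markers, 8 of 8 measured, summed to between 11.17 and 11.40 at day 0 and, on the later days in turn, to 13.79 to 14.25, 13.86 to 14.39 and 12.72 to 12.98. Markers of dividing cells, 7 of 9 measured, were highest on the day 3 arrays (9.02 to 10.07), beside 6.48 to 6.85 on day 0, 6.90 to 7.21 on day 7 and 6.47 to 6.96 on day 28. Endothelial markers, 6 of 8 measured, were 9.72 to 10.14, 8.23 to 8.88, 8.76 to 9.08 and 9.40 to 10.35 at days 0, 3, 7 and 28. Red blood cell markers, 3 of 6 measured, were 6.35 to 6.99, 7.59 to 8.98, 6.94 to 7.53 and 7.39 to 7.84 on those days, and adipocyte markers, 7 of 7 measured, were 9.03 to 9.68, 9.28 to 9.67, 8.80 to 9.60 and 9.58 to 9.82. Among the measured markers Adgre1 and Itgam of macrophages and 5 of dividing cells (Ccna2, Ccnb1, Cdk1, Prc1 and Aurkb), Ahsp and Slc4a1 of red blood cells, and Lep and Ucp1 of fat cells lay under the array median at day 0. The part of these shifts in the Slc25 differences was not tested, and in whole muscle fewer cells of a type and less RNA per cell cannot be told apart.

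Scaling sets how many members fall. Against day 0, the median difference over all genes tested was -0.052 for day 3, -0.0434 for day 7 and -0.0047 for day 28. When the median of the tested genes was set equal on all arrays, all differences moved by -0.461, -0.359 and -0.252 at days 3, 7 and 28, while under cyclic loess the all-gene median became -0.0022, 0.0043 and 0.0113. Member differences below are on the deposited scale and are read beside the all-gene median.

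The largest number of calls came at day 3, with falls led by Slc25a2, Slc25a11 and Slc25a26 and rises led by Slc25a24, Slc25a43 and Slc25a1. Of the 40 members 19 (47.5%) were called, beside 41.3% of all genes tested. In 6 members the level rose, beside 21.7% of all genes, and in 13 it fell, beside 19.6%. The median member difference was -0.29, and single members ranged from -1.32 to 2.00. The 4 day 3 arrays lay entirely above the 4 day 0 arrays in 5 members, beside 20.7% of all genes, and entirely below in 12, beside 18.6%. On the same arrays 4 of the 8 fibre markers fell and 0 rose, and their part in the falls was not tested. With centring on all tested genes, 5 members rose and 27 fell at day 3, beside 12.9% and 58% of all genes, and the share of rises among all called genes went from 52.5% to 18.2%. That centring added 14 members to those called at day 3, centring on the brighter 50% of genes 9 and cyclic loess 3, and Slc25a27, Slc25a29 and Slc25a34 were added by all 3 scalings.

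At day 7 the count was smaller. In 14 members (35%, beside 31.7% of all genes) the level was called, with 5 rises (background 16.9%) and 9 falls (background 14.9%), and the median member difference was -0.19. In 4 members every day 7 array lay above every day 0 array, beside 16.3% of all genes, and in 10 below, beside 15.8%. Centring on all tested genes gave 2 rises and 25 falls, beside 9.73% and 48.3% of all genes. The day 3, day 7 and day 28 comparisons share the day 0 arrays, so their values are given side by side only.

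By day 28 only 1 of the 40 members, Slc25a24, was called against day 0 (2.5%, beside 9.09% of all genes), with 1 rise (background 6.29%) and 0 falls (background 2.8%). The median member difference was -1e-04 and the range -0.43 to 0.84. Arrays of day 28 lay above all day 0 arrays in Slc25a4, Slc25a12, Slc25a24 and Slc25a43, beside 8.93% of all genes, and below them in 0 members, beside 6.95%. Centring on all tested genes gave 1 rise and 4 falls (Slc25a14, Slc25a15, Slc25a17 and Slc25a44), beside 3.74% and 20.9% of all genes. An intensity trend with robust priors, leaving out the dimmest 50% of genes, fitting the compared groups only or leaving out day 7 replicate 1 added a rise of Slc25a12, for 2 calls.

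From day 3 to day 7, 5 members were called (12.5%, beside 15.3% of all genes), 2 higher (background 6.02%) and 3 lower (background 9.23%). The 4 day 7 arrays lay above the day 3 arrays in 2 members (background 7.2%) and below in 3 (background 10.8%). Without replicate 2 or 4 of day 3 or replicate 3 of day 7, or with the compared groups only, 3 calls were left. From day 7 to day 28, 9 members were called (22.5%, beside 17.6% of all genes), 7 higher (background 8.24%) and 2 lower (background 9.38%), and the median member difference was 0.18, beside 0.02 over all genes. The 4 day 28 arrays lay above the day 7 arrays in 6 members (background 11%) and below in 4 (background 10.1%). Over all 5 comparisons 21 members were called at least once and 19 in none. The matching share over all genes was not counted, but it is at least the 41.3% called at day 3 alone.

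Leaving out 1 array also brought some differences past the threshold. At day 3 these were Slc25a52 (1.08, adjusted p = 0.0227) and Slc25a10 (0.58, adjusted p = 0.0299) without day 0 replicate 2, Slc25a29 (-0.52, adjusted p = 0.036) without day 0 replicate 3, Slc25a41 (-0.59, adjusted p = 0.0121) without day 3 replicate 1 and Slc25a51l1 (-0.66, adjusted p = 0.023) without day 3 replicate 2. Slc25a51 passed at day 3 without day 0 replicate 3 or day 7 replicate 3 (-0.54 to -0.44, adjusted p = 0.0403 to 0.0441), and Slc25a34 without replicate 1 or 3 of day 3 (-1.0 to -0.90, adjusted p = 0.0187 to 0.0492). At day 7 they were Slc25a52 (1.09, adjusted p = 0.0294) without day 0 replicate 2, Slc25a51 (-0.55, adjusted p = 0.0483) without day 0 replicate 3, Slc25a20 (-0.46, adjusted p = 0.0446) without day 7 replicate 3, and Slc25a14 without day 0 replicate 3 or day 7 replicate 1 (-0.52 to -0.51, adjusted p = 0.0181 to 0.0249). From day 3 to day 7 Slc25a12 passed without day 3 replicate 3 or day 7 replicate 1 (0.60 to 0.62, adjusted p = 0.0105 to 0.0159), Slc25a20 without day 3 replicate 3 (0.54, adjusted p = 0.0343) and Slc25a38 without day 3 replicate 1 or day 7 replicate 2 (-0.47 to -0.45, adjusted p = 0.03 to 0.0463). From day 7 to day 28 Slc25a4 passed without day 3 replicate 4 (0.28, adjusted p = 0.0459), Slc25a27 without day 7 replicate 4 or day 28 replicate 1 (0.59 to 0.61, adjusted p = 0.0365 to 0.0467) and Slc25a5-ps7 without replicate 1 or 4 of day 0 or replicate 2 of day 28 (-0.54 to -0.44, adjusted p = 0.0338 to 0.0463). Calls of members in the passages that follow rest on all 16 arrays unless an array is named.

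**Figure D1:**
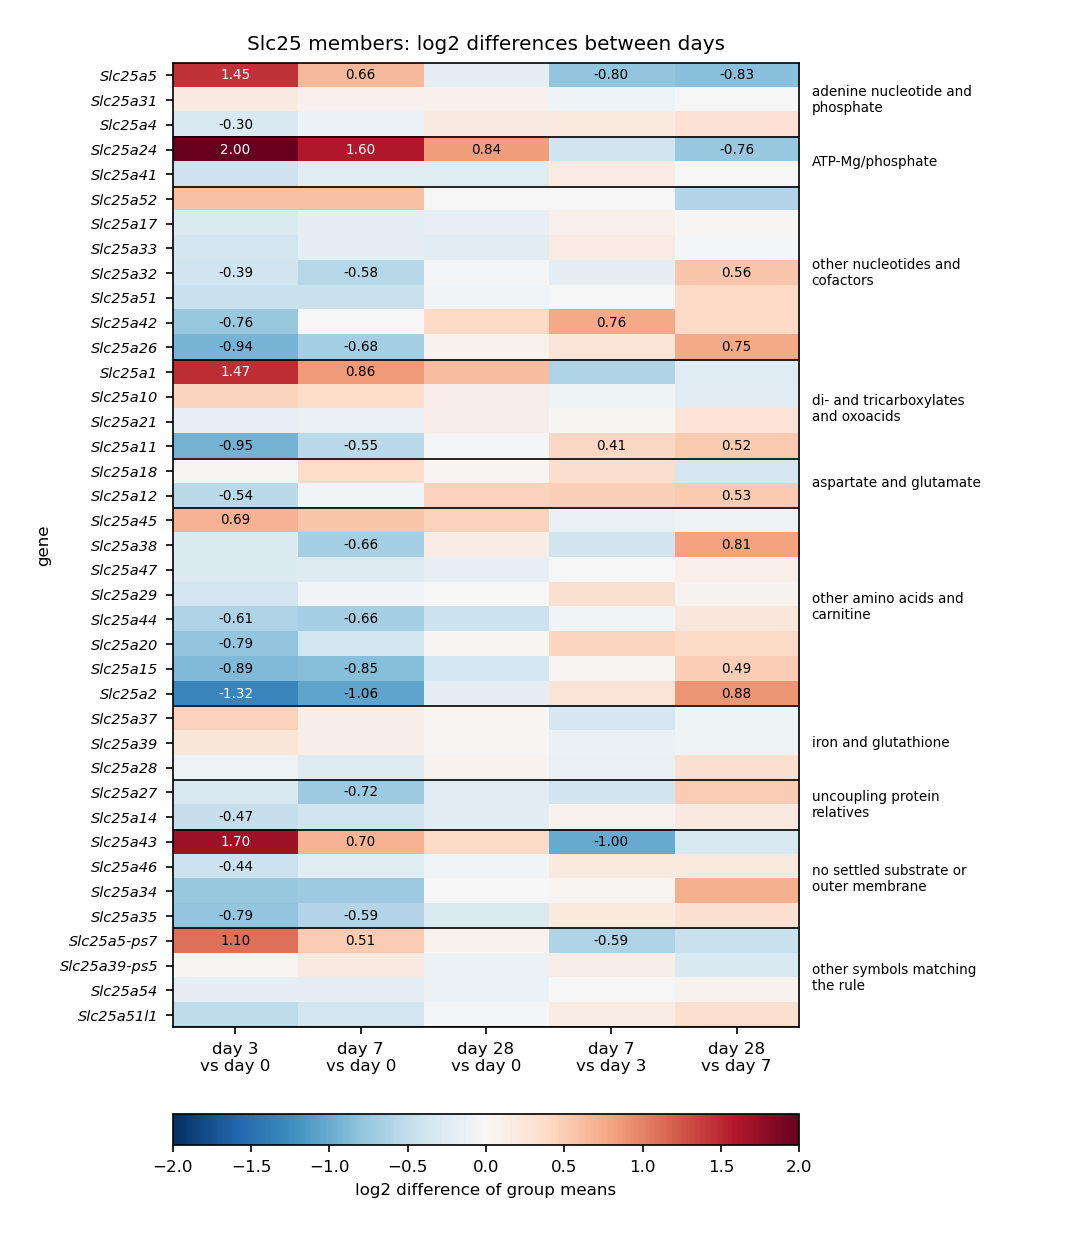
Log2 differences between group means (colour, -2 to 2) of 39 of the 40 Slc25 members (rows, by substrate group and then by the day 3 difference) in the 5 comparisons (columns), with numbers printed where the adjusted p was under 0.05. Of the printed values 19 stand in the day 3 column and 1 in the day 28 against day 0 column; the day 3 fall of Slc25a4 turned to 0.066 under cyclic loess.

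The difference between the ADP/ATP carriers of the inner membrane shifted with the day. Slc25a4 encodes the form typical of heart and skeletal muscle, Slc25a5 the form of growing and dividing cells, and Slc25a31 a form best known from testis. At day 3 the level of Slc25a5 rose and that of Slc25a4 fell slightly on the deposited scale but was 0.066 higher under cyclic loess, and at day 28 neither was called against day 0. To show the regulatory stretch of carriers with different courses over the days, the 250 bases before the annotated start of Slc25a4, Slc25a5, Slc25a24 and Slc25a11 are printed from RefSeq GRCr8. They lie at chr16:52805271-52805520 (+), chrX:120897366-120897615 (+), chr2:199449175-199449424 (+) and chr10:55859061-55859310 (-). They read 5′ to 3′ on the gene's strand, with capitals on matches, in either orientation, to the TATA box (letters TATAA), the CCAAT box and the GC box (letters GGGCGG).
Slc25a4: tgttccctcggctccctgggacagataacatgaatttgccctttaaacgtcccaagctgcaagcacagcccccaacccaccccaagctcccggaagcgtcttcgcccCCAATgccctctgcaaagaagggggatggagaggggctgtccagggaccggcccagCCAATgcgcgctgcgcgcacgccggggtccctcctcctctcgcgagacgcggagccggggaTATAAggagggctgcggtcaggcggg
Slc25a5: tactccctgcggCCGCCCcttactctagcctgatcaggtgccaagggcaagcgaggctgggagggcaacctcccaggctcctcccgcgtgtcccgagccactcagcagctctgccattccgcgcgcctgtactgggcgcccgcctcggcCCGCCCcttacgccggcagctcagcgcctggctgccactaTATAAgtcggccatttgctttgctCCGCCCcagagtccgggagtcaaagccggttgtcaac
Slc25a24: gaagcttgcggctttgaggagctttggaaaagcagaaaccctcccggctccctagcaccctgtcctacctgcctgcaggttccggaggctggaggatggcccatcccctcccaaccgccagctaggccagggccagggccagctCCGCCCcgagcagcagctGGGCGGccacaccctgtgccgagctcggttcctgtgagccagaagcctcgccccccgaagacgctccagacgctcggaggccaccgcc
Slc25a11: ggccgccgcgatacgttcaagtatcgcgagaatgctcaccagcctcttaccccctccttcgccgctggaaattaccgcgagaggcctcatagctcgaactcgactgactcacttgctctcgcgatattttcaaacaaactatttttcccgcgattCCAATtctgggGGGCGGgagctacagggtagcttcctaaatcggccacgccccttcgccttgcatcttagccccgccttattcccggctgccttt
Slc25a4 had 2 CCAAT boxes and 1 TATA box, Slc25a5 had 1 TATA box and 3 GC boxes, Slc25a24 had 2 GC boxes, and Slc25a11 had 1 CCAAT box and 1 GC box. Promoter windows were listed for 32 of the 40 members, 33 windows in all. Searched on both strands, with no overlap between motifs, TATAA occurred in 4 of the 33 windows (12.1%) and in 24% of all 33469 promoters. CCAAT occurred in 17 (51.5%), beside 34% of all promoters, and GGGCGG in 18 (54.5%), beside 30.5%. Median GC content was 57.2% in the member windows and 51.2% in all promoters. The letters CCGGAAGT, known as a GABP site, were in 2 windows (Slc25a20 and Slc25a54, 6.06% beside 3.1%), and the E-box CACGTG in 4 (Slc25a2, Slc25a31, Slc25a33 and Slc25a51, 12.1% beside 5.59%). The sequence TNAAGGTCA (ERR site, 1.04% of all promoters) and the NRF1 (3.75%) and MEF2 (3.41%) motifs were in 0 of these windows. These matches describe letters only.

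Slc25a5 read 5.08, 5.32, 5.17 and 4.90 on the 4 day 0 arrays, 6.43, 6.62, 6.45 and 6.79 at day 3, 5.89, 5.76, 5.57 and 5.88 at day 7, and 5.33, 4.53, 5.15 and 4.76 at day 28. All day 3 and day 7 arrays lay above all day 0 arrays, and the day 28 arrays spread across the day 0 range and below it. The level was 2.73-fold higher at day 3 (1.45 ± 0.16, adjusted p = 1.25e-06) and 1.58-fold higher at day 7 (0.66 ± 0.16, adjusted p = 0.00502). It fell by 0.80 ± 0.16 from day 3 to day 7 (adjusted p = 0.00273) and by 0.83 ± 0.16 from day 7 to day 28 (adjusted p = 0.002). At day 28 the difference from day 0 was -0.18 ± 0.16 (adjusted p = 0.574). The day 7 rise lost its call with centring on all tested genes (0.30, adjusted p = 0.106). The dividing cell markers described above were highest on the same day 3 arrays, and their part was not tested.

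Slc25a4 read 12.25, 12.29, 12.31 and 12.28 at day 0, 12.05, 12.10, 12.12 and 11.67 at day 3, 12.13, 12.09, 12.23 and 12.24 at day 7, and 12.48, 12.41, 12.51 and 12.43 at day 28. The day 3 and day 7 arrays all lay below day 0 and the day 28 arrays all above it, with day 3 replicate 4 far below its group. The day 3 difference was -0.30 ± 0.11 (adjusted p = 0.0406) on the deposited scale and turned to 0.066 (adjusted p = 0.649) under cyclic loess. That call was also lost with array weights (adjusted p = 0.0503), with the compared groups only (adjusted p = 0.0969), with the replicate number as a block (adjusted p = 0.0505), and without any 1 of the 4 day 0 arrays or day 3 replicate 4 (-0.31 to -0.20, adjusted p = 0.0634 to 0.147). At day 7 the difference was -0.11 ± 0.11 (adjusted p = 0.501) and at day 28 it was 0.17 ± 0.11 (adjusted p = 0.392), so neither was called. Slc25a31 had levels of 1.35 to 2.24 over the 16 arrays and was called in 0 comparisons.

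Within each array the difference Slc25a5 minus Slc25a4 followed the day. Set relative to its day 0 mean, it was -0.0048, 0.19, 0.03 and -0.22 on the day 0 arrays, 1.54, 1.69, 1.49 and 2.29 at day 3, 0.92, 0.84, 0.50 and 0.80 at day 7, and 0.01, -0.72, -0.20 and -0.51 at day 28. Neither day 3 nor day 7 overlapped day 0, whereas day 28 did. Against day 0 the shift was 1.75 for day 3, 0.77 for day 7 and -0.35 for day 28, and between later days it was -0.98 from day 3 to day 7 and -1.12 from day 7 to day 28. An exact two-sided permutation test gave p = 0.0286 for each of these except day 28 against day 0 (p = 0.171). The value 0.0286 is the smallest p that 4 against 4 arrays allow. Adjusted over the 5 comparisons, the values were 0.0357 and, for day 28 against day 0, 0.171. The contrast was chosen after the values were seen, and cyclic loess reduced it to 1.22 at day 3 and -0.70 from day 3 to day 7.

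Slc25a5-ps7, a pseudogene of Slc25a5 on another chromosome, read 6.65, 7.12, 6.80 and 7.34 at day 0, 8.01, 8.09, 7.97 and 8.26 at day 3, 7.68, 7.51, 7.40 and 7.35 at day 7, and 6.88, 7.33, 6.90 and 7.08 at day 28. Day 3 was highest, all day 7 arrays lay above day 0 by a narrow margin, and day 28 overlapped day 0. It rose by 1.10 ± 0.15 at day 3 (adjusted p = 1.42e-05) and 0.51 ± 0.15 at day 7 (adjusted p = 0.0176) and fell by 0.59 ± 0.15 from day 3 to day 7 (adjusted p = 0.0131). The day 7 rise lost its call without replicate 1 or 3 of day 0 or replicate 1 of day 7 (0.40 to 0.45, adjusted p = 0.0557 to 0.0695) and with centring on all tested genes (0.15, adjusted p = 0.412). Probe sequences were not used here, so whether this cluster also takes signal from Slc25a5 transcripts was not tested.

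**Figure D2:**
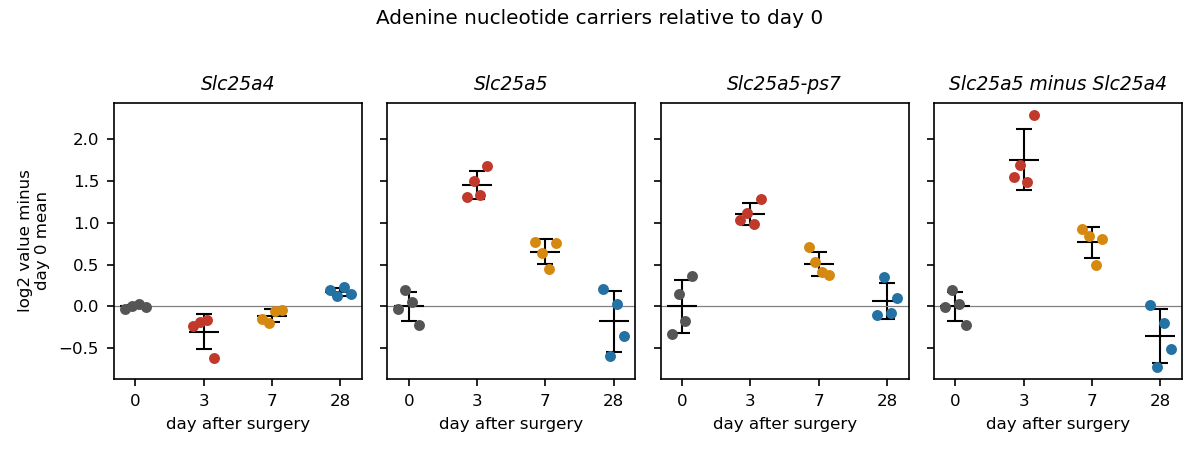
Log2 values minus the day 0 mean (vertical axis) of Slc25a4, Slc25a5, Slc25a5-ps7 and of the per-array difference Slc25a5 minus Slc25a4, on each array (points) by day after surgery (horizontal axis, days equally spaced), with group mean and SD as bars (n = 4). At day 3 Slc25a5 sat about 1.45 above day 0 and Slc25a4 about -0.30 from it on the deposited scale (0.066 under cyclic loess).

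Of the ATP-Mg/phosphate carriers, which adjust the adenine nucleotide pool of the matrix, Slc25a24 rose on every day after surgery. This carrier is gated by calcium on its cytosolic side. Slc25a24 read 4.86, 4.49, 4.45 and 5.26 at day 0, 6.68, 6.95, 6.47 and 6.98 at day 3, 6.51, 6.46, 6.25 and 6.25 at day 7, and 5.64, 5.58, 5.84 and 5.37 at day 28. No array of any later day overlapped day 0. The differences were 2.00 ± 0.17 at day 3 (4.0-fold, adjusted p = 5.78e-08), 1.6 ± 0.17 at day 7 (3.04-fold, adjusted p = 2.14e-06) and 0.84 ± 0.17 at day 28 (1.79-fold, adjusted p = 0.00541). From day 7 to day 28 it fell by 0.76 ± 0.17 (adjusted p = 0.00565). All 4 calls held in each alternative run. Macrophage and fibroblast markers were also highest on days 3 and 7 and above day 0 at day 28, and their part was not tested. Slc25a41, a shorter relative without the calcium-binding part, was dim (1.72 to 2.74) and was called in 0 comparisons. Slc25a54, which RefSeq places next to Slc25a24 on chromosome 2 with overlapping spans, ranged from 1.41 to 2.16 and was called in 0.

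Among carriers of other nucleotides and cofactors, 7 of 10 measured, 3 fell at day 3, 2 at day 7 and 0 rose against day 0 (background of falls 19.6% and 14.9%). Over all genes 21.7%, 16.9% and 6.29% rose at days 3, 7 and 28. Slc25a26 imports S-adenosylmethionine, the methyl donor. Slc25a26 read 6.47, 6.42, 6.72 and 6.34 at day 0, 5.64, 5.58, 5.85 and 5.15 at day 3, 5.68, 5.75, 5.72 and 6.08 at day 7, and 6.4, 6.45, 6.62 and 6.76 at day 28. Days 3 and 7 lay wholly below days 0 and 28. It fell by 0.94 ± 0.15 at day 3 (adjusted p = 6.97e-05) and 0.68 ± 0.15 at day 7 (adjusted p = 0.00208) and rose by 0.75 ± 0.15 from day 7 to day 28 (adjusted p = 0.00244). Slc25a32 carries folate and FAD. Slc25a32 read 7.51, 7.73, 7.77 and 7.45 at day 0, 7.16, 7.24, 7.44 and 7.04 at day 3, 7.10, 7.19, 6.96 and 6.90 at day 7, and 7.54, 7.41, 7.79 and 7.65 at day 28. Its day 3 and day 7 arrays all lay below day 0, with the day 3 gap narrow. The difference was -0.39 ± 0.13 at day 3 (adjusted p = 0.0208) and -0.58 ± 0.13 at day 7 (adjusted p = 0.00218), and the level rose by 0.56 ± 0.13 from day 7 to day 28 (adjusted p = 0.00587). Without replicate 2 or 3 of day 0 or replicate 4 of day 3 the day 3 call was lost (-0.35 to -0.33, adjusted p = 0.0588 to 0.0667).

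Slc25a42, which brings coenzyme A into the matrix, fell at day 3. Slc25a42 read 6.83, 6.97, 6.51 and 6.58 at day 0, 6.16, 5.85, 6.41 and 5.43 at day 3, 6.42, 6.58, 7.18 and 6.71 at day 7, and 7.04, 7.53, 7.17 and 6.77 at day 28. The day 3 arrays lay below all others. The day 3 fall was -0.76 ± 0.21 (adjusted p = 0.00782), the day 7 difference from day 0 was 0.00 ± 0.21, and the rise from day 3 to day 7 was 0.76 ± 0.21 (adjusted p = 0.0207). The rise from day 3 lost its call without replicate 2 or 4 of day 3 or replicate 3 of day 7 (0.59 to 0.73, adjusted p = 0.0593 to 0.082) and with the compared groups only (adjusted p = 0.0518). Slc25a33 carries pyrimidine nucleotides. Slc25a33 read 6.46, 6.44, 5.99 and 6.62 at day 0, 6.34, 6.03, 6.07 and 5.61 at day 3, 6.28, 6.23, 6.46 and 5.73 at day 7, and 6.48, 6.17, 6.01 and 5.98 at day 28. All 4 groups overlapped, and the day 3 difference was -0.37 ± 0.19 (adjusted p = 0.134). Slc25a17, a carrier of peroxisomes (-0.29 ± 0.12, adjusted p = 0.071), Slc25a51, the NAD carrier (-0.44 ± 0.19, adjusted p = 0.0759), and dim Slc25a52 (0.58 ± 0.44, adjusted p = 0.316) were not called at day 3 or in any other comparison.

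Of the carriers of di- and tricarboxylates, all 4 measured, 1 rose and 1 fell at day 3, beside 21.7% and 19.6% of all genes, and 2 were not called. Slc25a1 exports citrate, the source of cytosolic acetyl units for lipid synthesis. Slc25a1 read 3.86, 3.98, 4.46 and 3.17 at day 0, 5.42, 5.73, 4.73 and 5.48 at day 3, 4.07, 5.06, 4.74 and 5.02 at day 7, and 3.93, 4.70, 4.57 and 4.74 at day 28. Day 3 lay wholly above day 0, while days 7 and 28 overlapped it. It rose by 1.47 ± 0.28 at day 3 (2.78-fold, adjusted p = 0.000373) and 0.86 ± 0.28 at day 7 (adjusted p = 0.0283), and at day 28 the difference was 0.61 ± 0.28 (adjusted p = 0.203). The day 7 call was lost without day 0 replicate 1 or 4 or day 7 replicate 2, 3 or 4 (0.62 to 0.85, adjusted p = 0.0519 to 0.104), with centring on all tested genes (0.50, adjusted p = 0.14) and with cyclic loess (0.70, adjusted p = 0.0714).

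Slc25a11 exchanges malate for oxoglutarate and is the malate arm of the malate-aspartate shuttle. Slc25a11 read 11.58, 11.60, 11.48 and 11.45 at day 0, 10.68, 10.53, 10.76 and 10.33 at day 3, 10.78, 10.77, 11.26 and 11.12 at day 7, and 11.52, 11.52, 11.47 and 11.51 at day 28. Days 3 and 7 lay below day 0 without overlap, and day 28 fell inside the day 0 range. The level was 0.517 times that of day 0 at day 3 (-0.95 ± 0.13, adjusted p = 1.14e-05) and 0.685 times at day 7 (-0.55 ± 0.13, adjusted p = 0.00369), and the day 28 difference was -0.02 ± 0.13 (adjusted p = 0.942). It rose by 0.52 ± 0.13 from day 7 to day 28 (adjusted p = 0.00968). The rise of 0.41 ± 0.13 from day 3 to day 7 (adjusted p = 0.0441) was lost without any of 13 of the 16 arrays (all except day 3 replicate 3 and day 7 replicates 1 and 2; 0.31 to 0.44, adjusted p = 0.0502 to 0.154), with cyclic loess (0.23, adjusted p = 0.261), with the compared groups only (adjusted p = 0.141) and with the replicate number as a block (adjusted p = 0.0592).

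Slc25a10 exchanges malate or succinate for phosphate. Slc25a10 read 5.45, 6.03, 5.25 and 5.72 at day 0, 5.81, 5.99, 5.92 and 6.51 at day 3, 5.86, 5.72, 5.89 and 6.44 at day 7, and 5.74, 6.04, 5.55 and 5.66 at day 28. The groups overlapped, and the day 3 difference of 0.44 ± 0.20 (adjusted p = 0.0854) was not called and was -0.02 under all-gene centring. Slc25a21, which carries oxodicarboxylates of lysine breakdown, was dim (1.81 to 2.56) and was called in 0 comparisons.

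The aspartate/glutamate carrier of muscle, Slc25a12, is the other arm of the malate-aspartate shuttle. Slc25a12 read 11.28, 11.42, 11.18 and 11.39 at day 0, 10.82, 10.52, 11.15 and 10.61 at day 3, 10.82, 11.17, 11.51 and 11.52 at day 7, and 11.68, 11.77, 11.84 and 11.83 at day 28. Day 3 lay below day 0 and day 28 above it, both without overlap, while day 7 spread across day 0. The day 3 fall was -0.54 ± 0.16 (adjusted p = 0.0117) and was lost under cyclic loess (-0.23, adjusted p = 0.277). At day 28 the difference from day 0 was 0.47 ± 0.16 (adjusted p = 0.0825), which the settings named above took past the threshold. From day 7 to day 28 it rose by 0.53 ± 0.16 (adjusted p = 0.031), a call lost without day 7 replicate 1 or 2 or day 28 replicate 2, 3 or 4 (0.38 to 0.53, adjusted p = 0.0591 to 0.111), with cyclic loess (0.43, adjusted p = 0.0687) and with the compared groups only (adjusted p = 0.0573). Slc25a18, a glutamate carrier, was dim (2.07 to 3.38) and was called in 0 comparisons.

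**Figure D3:**
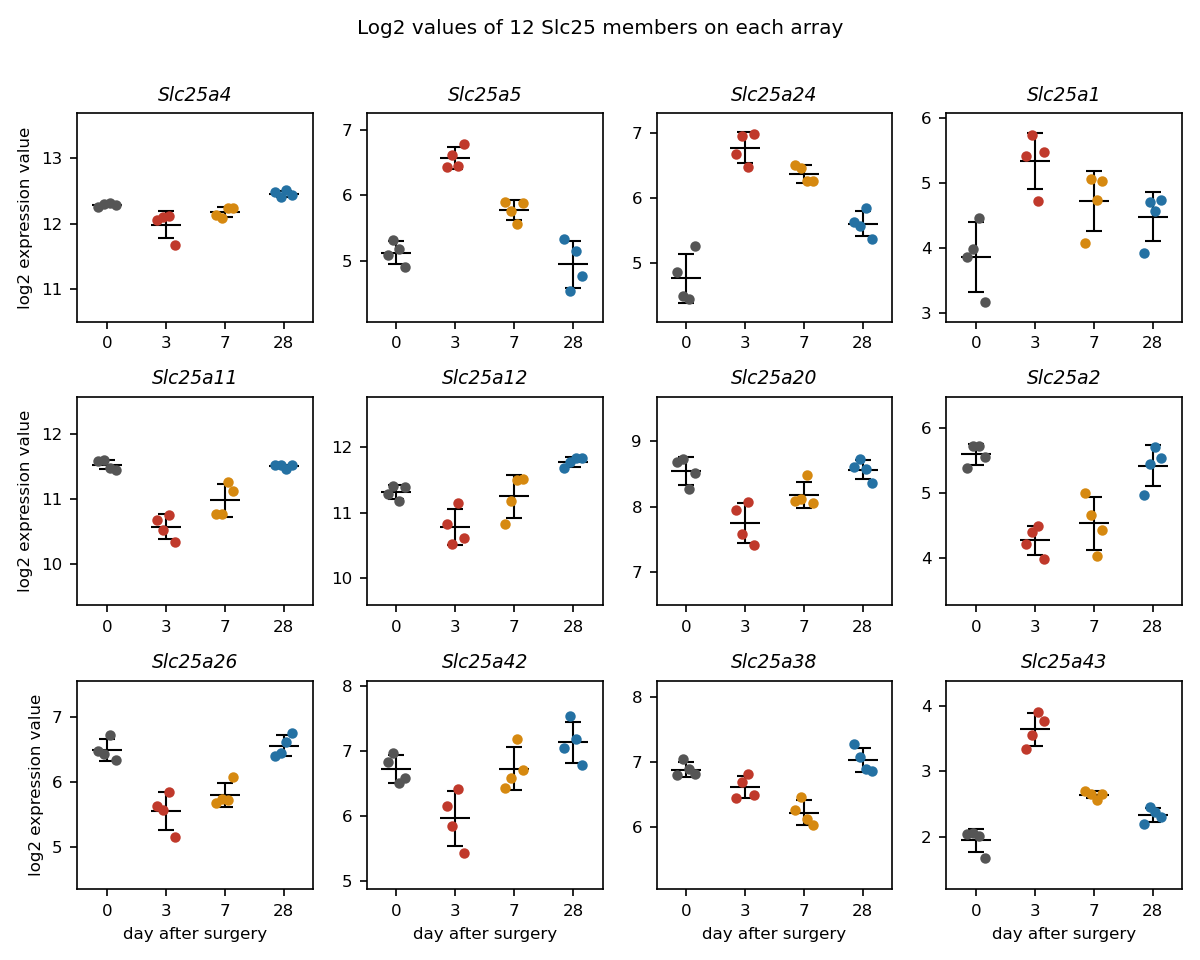
Log2 expression values (vertical axis, own centre but the same span in each panel) of 12 Slc25 members on each array (points) by day after surgery (horizontal axis, days equally spaced), with group mean and SD as bars (n = 4). Slc25a5, Slc25a24, Slc25a1 and Slc25a43 were highest at day 3, while Slc25a11, Slc25a12, Slc25a20, Slc25a2, Slc25a26 and Slc25a42 were lowest then and Slc25a38 at day 7; the day 3 fall of Slc25a4 turned to 0.066 under cyclic loess.

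Carriers of other amino acids and carnitine, 8 of 9 measured, gave 4 falls and 1 rise at day 3, beside 19.6% and 21.7% of all genes. At day 7 they gave 4 falls and 0 rises, beside 14.9% and 16.9%. From day 7 to day 28, 3 rose and 0 fell, beside 8.24% and 9.38% of all genes. Slc25a2 and Slc25a15 both carry ornithine, the first best known from human work and the second as the ornithine transporter of the urea cycle in liver. Slc25a2 read 5.38, 5.71, 5.72 and 5.54 at day 0, 4.21, 4.40, 4.49 and 3.99 at day 3, 5.0, 4.65, 4.03 and 4.44 at day 7, and 4.97, 5.45, 5.70 and 5.53 at day 28. Days 3 and 7 lay below all day 0 arrays, and day 28 overlapped both day 0 and day 7. The differences were -1.32 ± 0.19 at day 3 (0.401 times day 0, adjusted p = 2.57e-05), the lowest of the 40 members, and -1.06 ± 0.19 at day 7 (adjusted p = 0.000417), with a rise of 0.88 ± 0.19 from day 7 to day 28 (adjusted p = 0.00446).

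Slc25a15 read 6.02, 6.30, 6.31 and 6.36 at day 0, 5.40, 5.24, 5.51 and 5.28 at day 3, 5.03, 5.16, 5.58 and 5.81 at day 7, and 5.73, 5.80, 6.10 and 5.92 at day 28. Its day 3 and day 7 arrays lay below day 0, and day 28 overlapped day 0 and day 7. It fell by 0.89 ± 0.16 at day 3 (adjusted p = 0.000183) and by 0.85 ± 0.16 at day 7 (adjusted p = 0.000482). The later rise of 0.49 ± 0.16 (adjusted p = 0.0398) was lost without day 7 replicate 1 or 2 or day 28 replicate 2, 3 or 4 (0.37 to 0.52, adjusted p = 0.0584 to 0.138) and with the compared groups only (adjusted p = 0.101).

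Slc25a20 exchanges acylcarnitines for carnitine and so feeds long-chain fatty acids to oxidation. Slc25a20 read 8.68, 8.73, 8.27 and 8.51 at day 0, 7.94, 7.58, 8.07 and 7.41 at day 3, 8.08, 8.12, 8.48 and 8.05 at day 7, and 8.61, 8.72, 8.57 and 8.37 at day 28. Only day 3 lay wholly below day 0. The day 3 fall was -0.79 ± 0.16 (0.577 times day 0, adjusted p = 0.00057), and the differences of -0.36 ± 0.16 at day 7 (adjusted p = 0.0957) and 0.02 ± 0.16 at day 28 were not called.

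Slc25a38 imports glycine for heme synthesis, as shown in yeast and in human red cell precursors. Slc25a38 read 6.80, 7.05, 6.89 and 6.81 at day 0, 6.45, 6.70, 6.83 and 6.5 at day 3, 6.27, 6.46, 6.13 and 6.03 at day 7, and 7.27, 7.09, 6.90 and 6.87 at day 28. Day 7 was its lowest group and lay below all day 0 and day 28 arrays. It fell by 0.66 ± 0.13 at day 7 (adjusted p = 0.00096) and rose by 0.81 ± 0.13 by day 28 (adjusted p = 0.000572), while the day 3 difference was -0.27 ± 0.13 (adjusted p = 0.124).

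Slc25a44, a carrier of branched-chain amino acids, fell by 0.61 ± 0.21 at day 3 (adjusted p = 0.0269) and 0.66 ± 0.21 at day 7 (adjusted p = 0.023). The day 3 call was lost without day 0 replicate 1, 3 or 4 or day 3 replicate 2 (-0.61 to -0.52, adjusted p = 0.0513 to 0.0854). The day 7 call was lost without day 0 replicate 3 or day 7 replicate 1, which read 4.70 beside 5.73 to 5.85 on the other day 7 arrays (-0.59 to -0.39, adjusted p = 0.0658 to 0.0662), and with the compared groups only (adjusted p = 0.0663). Slc25a45 was the one rise of the group, 0.69 ± 0.24 at day 3 (adjusted p = 0.0261), with arrays of day 3 (3.40 to 4.30) overlapping those of day 0 (2.91 to 3.45). Its call was lost without day 0 replicate 1 or 3 or day 3 replicate 1 or 4 (0.56 to 0.67, adjusted p = 0.0557 to 0.0907) and under all 3 other scalings, centring on all tested genes (0.23), centring on the brighter 50% of genes (0.54) and cyclic loess (0.55). Leaving out day 0 replicate 1 thus took the day 3 count of the group from 5 to 3. Slc25a29, a carrier of basic amino acids (-0.36 ± 0.19 at day 3, adjusted p = 0.15), and dim Slc25a47, a carrier mainly of liver (-0.27 ± 0.20, adjusted p = 0.3), were called in 0 comparisons.

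The iron and glutathione carriers, 3 of 4 measured, were called in 0 of the 5 comparisons. Of all genes 41.3%, 31.7% and 9.09% were called at days 3, 7 and 28 against day 0. The share was 15.3% from day 3 to day 7 and 17.6% from day 7 to day 28. Slc25a37 and Slc25a28 are the mitoferrins that import iron, the first chiefly in red cell precursors, and Slc25a39 is linked to the import of glutathione. Slc25a37 read 4.56, 4.70, 4.36 and 4.87 at day 0, 4.98, 4.47, 6.14 and 4.72 at day 3, 4.83, 4.96, 4.27 and 4.92 at day 7, and 4.58, 4.8, 4.77 and 4.48 at day 28. All groups overlapped, and day 3 replicate 3 alone reached 6.14. The day 3 difference was 0.45 ± 0.27 (adjusted p = 0.195), and it was -0.01 under all-gene centring. Slc25a28 differed by -0.11 ± 0.14 (adjusted p = 0.593) and Slc25a39 by 0.25 ± 0.19 (adjusted p = 0.313) at day 3, the latter -0.21 with that centring. Under the same centring 1 of the 3, Slc25a28, was called lower at day 3 and day 7 (-0.57 and -0.61) and higher from day 7 to day 28 (0.43, adjusted p = 0.0367). Of all genes 58% and 48.3% were then called lower at days 3 and 7, and 13.8% higher from day 7 to day 28. Red blood cell markers were above day 0 on all day 3 and day 28 arrays, and their part was not tested.

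The relatives of the uncoupling proteins, 2 of 3 measured, are best known from the nervous system. Slc25a27 read 4.68, 4.43, 4.24 and 4.69 at day 0, 4.14, 4.23, 4.04 and 4.34 at day 3, 3.38, 3.88, 3.79 and 4.10 at day 7, and 4.05, 4.05, 4.79 and 4.29 at day 28. Day 7 was lowest and lay below all day 0 arrays, whereas days 3 and 28 overlapped day 0. It fell by 0.72 ± 0.18 at day 7 (adjusted p = 0.00494), and the day 3 difference was -0.32 ± 0.18 (adjusted p = 0.17). That day 3 difference passed the threshold under the 3 other scalings, at -0.78 with centring on all tested genes, -0.48 on the brighter 50% and -0.51 with cyclic loess (adjusted p = 0.0011, 0.042 and 0.0258). Slc25a14 fell by 0.47 ± 0.16 at day 3 (adjusted p = 0.0232), with overlapping arrays, and lost its call without day 0 replicate 2 or 4 or day 3 replicate 2 or 3 (-0.44 to -0.38, adjusted p = 0.0567 to 0.082). Its day 7 difference of -0.39 ± 0.16 (adjusted p = 0.0666) was not called on the deposited scale. Under the 3 other scalings it was called, at -0.75 with centring on all tested genes, -0.47 on the brighter 50% and -0.50 with cyclic loess.

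Members with no settled substrate or in the outer membrane, 4 of 5 measured, held the second largest day 3 rise of the 40 members. Slc25a43 lies next to Slc25a5 on chromosome X in RefSeq, with no protein-coding gene between them. Slc25a43 read 2.03, 2.05, 2.01 and 1.67 at day 0, 3.34, 3.56, 3.92 and 3.77 at day 3, 2.70, 2.65, 2.57 and 2.66 at day 7, and 2.19, 2.45, 2.38 and 2.29 at day 28. The 4 days did not overlap at all, with day 3 highest, then day 7, day 28 and day 0. It rose by 1.70 ± 0.13 at day 3 (3.26-fold, adjusted p = 1.54e-08) and 0.70 ± 0.13 at day 7 (adjusted p = 0.000562) and fell by 1.00 ± 0.13 from day 3 to day 7 (adjusted p = 5.7e-05). At day 28 the difference of 0.39 ± 0.13 (adjusted p = 0.0816) was not called. The day 0, day 7 and day 28 values are dim, so the rises and the fall from day 3 to day 7 may be understated. With centring on all tested genes the rises were 1.24 at day 3 and 0.34 at day 7.

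Slc25a34 was called lower at day 3 only under other scalings (-1.22, -0.92 and -0.96 with centring on all tested genes, on the brighter 50% and with cyclic loess), with array weights or without replicate 1 or 3 of day 3. Slc25a34 read 4.49, 4.6, 4.51 and 5.47 at day 0, 4.41, 3.45, 4.72 and 3.43 at day 3, 3.63, 4.18, 4.41 and 3.96 at day 7, and 4.51, 4.98, 5.39 and 4.15 at day 28. Only the day 7 arrays lay wholly below day 0, by a narrow margin, and the differences of -0.76 ± 0.32 at day 3 (adjusted p = 0.066) and -0.72 ± 0.32 at day 7 (adjusted p = 0.0975) were not called. Slc25a35 fell by 0.79 ± 0.21 at day 3 (adjusted p = 0.00622) and 0.59 ± 0.21 at day 7 (adjusted p = 0.0437), both with overlapping arrays. The day 7 call was lost with the replicate number as a block (adjusted p = 0.0702) and without replicate 1, 2 or 4 of day 0, 1, 3 or 4 of day 7 or 1 or 3 of day 28 (-0.62 to -0.47, adjusted p = 0.0518 to 0.136). Slc25a46, an outer membrane protein that shapes mitochondria, fell by 0.44 ± 0.12 at day 3 (adjusted p = 0.00768) with no overlap of arrays and differed by -0.24 ± 0.12 at day 7 (adjusted p = 0.144).

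Of the 5 members outside the substrate lists, Slc25a5-ps7 alone was called. Slc25a39-ps5 ranged from 4.26 to 5.39 over the 16 arrays and Slc25a51l1 from 1.73 to 3.06, and their day 3 differences were 0.04 ± 0.23 and -0.51 ± 0.21 (adjusted p = 0.0625 for the latter).

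Genes that work beside the carriers were counted from lists of their own. Their counts are to be read beside the 21.7% of all genes that rose and 19.6% that fell at day 3. These shares were 16.9% and 14.9% at day 7, 6.29% and 2.8% at day 28, and 8.24% and 9.38% from day 7 to day 28. Carrier relatives under other symbols, 4 of 5 measured, gave 2 rises and 1 fall at day 3 and again at day 7. Ucp2, the uncoupling protein of many cell types including macrophages, rose by 3.01 ± 0.17, 1.94 ± 0.17 and 0.87 ± 0.17 at days 3, 7 and 28 (adjusted p = 4.38e-10, 1.95e-07 and 0.00365). Ucp3, the form of skeletal muscle, fell by 1.34 ± 0.39 at day 3 (adjusted p = 0.0098) and 1.15 ± 0.39 at day 7 (adjusted p = 0.0306). The day 7 fall was lost without day 0 replicate 2 or 4 or day 7 replicate 1 or 4 (adjusted p up to 0.0986). Mtch1, a carrier-like protein of the outer membrane, rose by 1.23 ± 0.16 and 1.07 ± 0.16 at days 3 and 7. Ucp1, the form of brown fat, was dim (-0.09 ± 0.20 at day 3) and not called.

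Of other transport proteins, 6 of 10 listed were measured and 2 rose and 3 fell at day 3. Sfxn1, the mitochondrial serine transporter, rose by 2.25 ± 0.18 at day 3 (adjusted p = 1.67e-08) and 1.5 ± 0.18 at day 7, and its relative Sfxn3 by 0.85 ± 0.15 and 0.83 ± 0.15. The porins of the outer membrane fell at day 3, Vdac1 by 0.49 ± 0.12, Vdac2 by 0.44 ± 0.12 and Vdac3 by 0.45 ± 0.10. Under cyclic loess Vdac1 (-0.13, adjusted p = 0.379) and Vdac3 (-0.10, adjusted p = 0.454) lost the call.

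Chaperones and receptors that bring carriers to the inner membrane, 10 of 11 measured, gave 5 rises and 1 fall at day 3. Timm13, a chaperone of the intermembrane space, rose by 0.97 ± 0.21 (adjusted p = 0.00106) and kept its call in each alternative run. Timm10 (0.60 ± 0.20), Timm9 (0.56 ± 0.19) and Timm8b (0.50 ± 0.16), which work in the same space, did not, nor did Tomm22 and Tomm70: the count of 6 calls was 3 without day 0 replicate 1, 2 without day 3 replicate 1 or 2, and 2 with arrays centred on the brighter 50% of genes, and Tomm22 (0.46 ± 0.16) reached -0.0055 under all-gene centring. Tomm70, the import receptor for carriers, fell by 0.34 ± 0.12 (adjusted p = 0.0384), a call lost under cyclic loess (-0.19) and without day 0 replicate 1 or 2 or day 3 replicate 2, 3 or 4.

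The enzymes of the malate-aspartate shuttle fell at day 3, as did Slc25a11 and Slc25a12, while Slc25a12 was not called at day 7 (-0.06, adjusted p = 0.814). All 4 fell at day 3, 3 of 4 at day 7 and 0 of 4 at day 28 (background of falls 2.8%), and 3 rose from day 7 to day 28. Got1, the cytosolic aspartate aminotransferase, fell by 1.19 ± 0.19 at day 3 (adjusted p = 7.03e-05), Mdh2 by 0.79 ± 0.13 and Mdh1 by 0.73 ± 0.15. From day 7 to day 28 Got1 rose by 0.90 ± 0.19, Mdh1 by 0.66 ± 0.15 and Mdh2 by 0.48 ± 0.13, the last lost without day 7 replicate 1 or 2, under cyclic loess and with the compared groups only (adjusted p up to 0.0685). Got2 fell by 0.45 ± 0.15 (adjusted p = 0.0224), which was lost under cyclic loess and without day 0 replicate 2 or day 3 replicate 2 (adjusted p up to 0.0801). Of the carnitine enzymes beside Slc25a20, 3 of 4 measured, Cpt2 fell by 0.94 ± 0.17 and Cpt1b, the muscle form of the entry enzyme, by 0.68 ± 0.12 at day 3, and 0 of 3 were called at day 7 against day 0. Cpt2 rose from day 3 to day 7 (0.59) and from day 7 to day 28 (0.54), and Cpt1b from day 3 to day 7 (0.46). These calls were lost in 5, 7 and 6 alternative runs. Cpt1a was lower at day 28 than at day 0 (-0.67) and day 7 (-0.59), each call lost in 14 alternative runs. Of genes that make or use ATP beside the nucleotide carrier, 7 of 12 measured, 4 fell at day 3. They included Atp5f1c, a subunit of ATP synthase (-1.34 ± 0.19, adjusted p = 1.88e-05), and Ak3, a matrix nucleotide kinase (-0.44 ± 0.11). The other falls were those of the ATP synthase subunits Atp5f1a (-0.64 ± 0.12) and Atp5f1b (-0.45 ± 0.12), both lost under cyclic loess (adjusted p = 0.0526 and 0.412), while Ckm, the muscle creatine kinase, differed by -0.09 ± 0.10 and turned to 0.31 (adjusted p = 0.0115) under cyclic loess.

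Iron and heme genes, 5 of 9 measured, gave 1 rise and 3 falls at day 3 and the same counts at day 7. Tfrc, the transferrin receptor, fell by 1.75 ± 0.19 and Abcb10, an inner membrane transporter of heme synthesis, by 1.24 ± 0.18 at day 3. Fech, the last enzyme of heme synthesis, fell by 0.91 ± 0.16, and Hmox1, which breaks heme down and is abundant in macrophages, rose by 4.34 ± 0.29 (adjusted p = 2.75e-09). In a list of calcium uniporter genes that also holds Letm1, 6 of 7 measured, 2 rose and 2 fell at day 3. Mcub, the dominant-negative pore subunit, rose by 1.40 ± 0.24 and Micu3, a calcium-sensing subunit, fell by 1.43 ± 0.22. Letm1, an ion exchanger of the inner membrane, fell by 0.73 ± 0.13, and Mcu, the pore itself, rose by 0.36 ± 0.12 on the deposited scale but was -0.10 under all-gene centring. The Mcu call was also lost with the brighter 50% of genes as the reference, with the compared groups only and without day 0 replicate 1 or 3 or day 3 replicate 2 or 4.

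Of the listed regulators, 9 of 11 measured, 1 rose and 6 fell at day 3 (background 21.7% and 19.6%) and at day 7 (background 16.9% and 14.9%). At day 28, 0 were called (background 9.09%), and from day 7 to day 28, 5 rose and 1 fell (background 8.24% and 9.38%). Ppargc1a, the coactivator of mitochondrial biogenesis, fell by 2.37 ± 0.19 at day 3 and 1.39 ± 0.19 at day 7 and differed by -0.49 ± 0.19 at day 28 (adjusted p = 0.114). Perm1, its muscle partner, fell by 3.28 ± 0.33 and 2.95 ± 0.33 and rose by 2.40 ± 0.33 from day 7 to day 28. Ppara, a receptor that drives fatty acid oxidation genes, fell by 2.18 ± 0.21 at day 3, and Myc, a growth transcription factor, rose by 2.18 ± 0.27 (adjusted p = 3.99e-06).

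**Figure D4:**
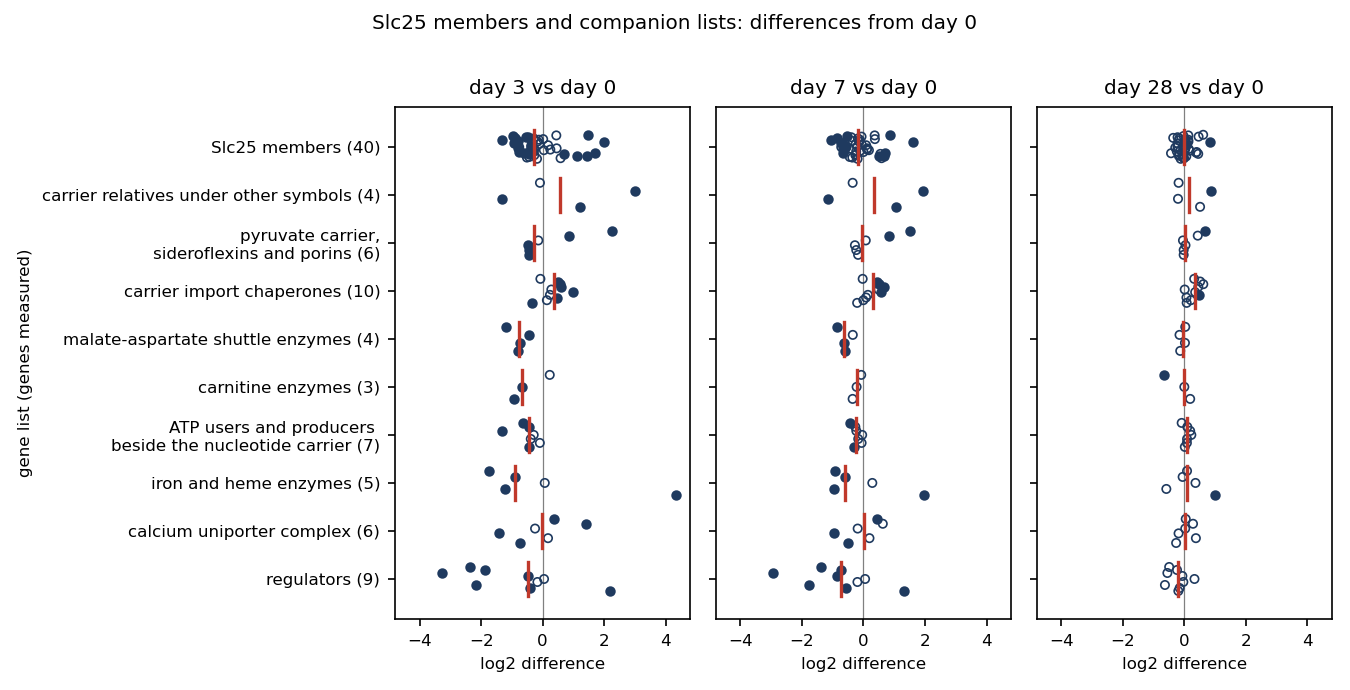
Log2 differences from day 0 (horizontal axis) of the Slc25 members and of genes in 9 companion lists (rows, with the number of genes measured) at days 3, 7 and 28 (panels). Filled points passed an adjusted p of 0.05, open points did not, and red bars mark list medians; the member median was -0.29 at day 3, -0.19 at day 7 and -1e-04 at day 28, and Mcu, Tomm22 and Tomm40 turned below 0 at day 3 and Ckm above it under another scaling.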

How the data were processed

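The authors deposited log2 expression values for each transcript cluster on each array; the submitters' processing notes name RMA, oligo and limma. Their order, versions, parameters and genome build are not given in the sources used here. The table held 36685 clusters on 16 arrays with values from 0.0686 to 13.6. The platform annotation listed 15653 clusters, 14824 with 1 gene symbol and 829 with several, and 21032 clusters were not listed. For 234 genes with more than 1 cluster the one with the highest mean was used, which left 14557 genes. Arrays have no read depth, so their number limits the precision. Array medians over all clusters were 3.19 to 3.41, and correlations within a day were 0.985 to 0.99. Medians over the tested genes differed more by day, at 4.16 to 4.24 on day 0 and 4.65 to 4.71 on day 3. They were 4.54 to 4.59 on day 7 and 4.42 to 4.49 on day 28.

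With limma 3.58.1 in R 4.3.3, 1 mean per group was fitted to all 16 arrays, without covariates and with empirical Bayes moderation (residual degrees of freedom 12, prior 4.99). Tests were two-sided, with Benjamini-Hochberg adjustment over all genes within each of 5 comparisons. The script was tested on simulated data. The members, the lists and the rule for naming genes were chosen with earlier results of these data known. By that rule every member may be named, and values on every array are given for 16 carriers, 12 of them measured, and for the 4 largest called rises and falls per comparison whose arrays do not overlap, 20 genes in all. From each companion list up to 4 called genes with the largest differences are named, and Ucp1, Ucp2, Ucp3, Mtch1, Mtch2, Ppargc1a and Perm1 may always be. Tomm22, Tomm40, Tomm70, Ckm, Iscu and Gabpa were added after their values were seen.

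The alternatives were array weights, robust priors with an intensity trend, a filter on the dimmest 25% or 50% of genes, cyclic loess, centring arrays on all tested genes, the mean of a gene's clusters, the compared groups only, the replicate number as a block, and each array left out. Centring on the brighter 50% of genes and the test of Slc25a5 minus Slc25a4 were added after seeing the data. 1 member that was called in 0 comparisons is counted but not reported here by name. Promoter sequences are from RefSeq GRCr8.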

Additional observations from a re-analysis of the deposited data

Results flagged for a closer look

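In 160 groups of 4 arrays (40 members on 4 days), the highest or lowest array stood apart from the other 3 by more than Dixon's critical value allows in 10, and chance alone flags about 1 in 20 groups. On day 0 arrays these were Slc25a34 in replicate 4 (5.47, the others 4.49 to 4.6), Slc25a39-ps5 in replicate 1 (5.02, the others 4.6 to 4.66), Slc25a43 in replicate 4 (1.67, the others 2.01 to 2.05) and Slc25a52 in replicate 2 (3.76, the others 1.72 to 1.80). On day 3 it was Slc25a4 in replicate 4 (11.67, the others 12.05 to 12.12). On day 7 they were Slc25a20 in replicate 3 (8.48, the others 8.05 to 8.12), Slc25a26 in replicate 4 (6.08, the others 5.68 to 5.75), Slc25a39 in replicate 3 (6.11, the others 5.75 to 5.81) and Slc25a44 in replicate 1 (4.70, the others 5.73 to 5.85). On day 28 it was Slc25a11 in replicate 3 (11.47, the others 11.51 to 11.52), where the whole range was narrow. Leaving out the array ended the calls of Slc25a4 at day 3, Slc25a44 at day 7 and Slc25a11 from day 3 to day 7. It added calls of Slc25a52 at day 3 (1.08) and day 7 (1.09), Slc25a20 at day 7 (-0.46) and Slc25a4 from day 7 to day 28 (0.28). For Slc25a11 from day 3 to day 7 and Slc25a4 from day 7 to day 28 the array left out belongs to neither compared group. It enters these only through the shared spread, and the differences did not change. The Slc25a11 call was lost without any of 13 of the 16 arrays.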

How the results depend on the processing

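Of 48 called differences of members, 33 kept their call in every alternative setting that could be fitted to them (25 or 26, since the stricter filter on dim genes drops Slc25a27 and Slc25a43), 13 lost it without at least 1 array and 12 in at least 1 other setting, and 65 of 105 called differences of companion genes kept theirs. Centring arrays on all tested genes changed the counts most. It gave 10321 called genes at day 3 (1883 higher, 8438 lower), 8442 at day 7 (1417 and 7025) and 3587 at day 28 (544 and 3043), against 6013, 4617 and 1323, so the share of rises became 18.2%, 16.8% and 15.2% in place of 52.5%, 53.2% and 69.2%. Called members became 32, 27 and 5. The median over all members became -0.76, -0.54 and -0.25, beside all-gene medians of -0.51, -0.40 and -0.26. Members called at day 28 against day 0 were 2 with an intensity trend and robust priors, without the dimmest 50% of genes and with the compared groups only; from day 3 to day 7 they were 8 with the trend and 3 with the compared groups only. Cyclic loess turned Slc25a4 at day 3 (0.066, adjusted p = 0.649) and Ckm at day 3 (0.31, adjusted p = 0.0115) and took Slc25a5 minus Slc25a4 to 1.22 at day 3 and to -0.70 from day 3 to day 7. Centring on all tested genes turned Mcu (-0.10), Tomm22 (-0.0055), Tomm40 (-0.32), Iscu (-0.39) and Gabpa (-0.42) at day 3 and Gabpa (-0.31) at day 7. These follow from a shift of every gene on an array; for cyclic loess the cause was not tested. Leaving out 1 array gave 5486 to 6067 genes for day 3, 4019 to 4649 for day 7, 904 to 1513 for day 28, 1702 to 2290 from day 3 to day 7 and 2037 to 2638 from day 7 to day 28. Members called were then 16 to 20, 11 to 14, 1 to 2, 3 to 7 and 7 to 10, and their medians -0.33 to -0.25, -0.22 to -0.14, -0.05 to 0.01, 0.0027 to 0.06 and 0.14 to 0.21. Slc25a5 minus Slc25a4 was 1.57 to 1.84, 0.69 to 0.86, -0.47 to -0.23, -1.07 to -0.81 and -1.24 to -1.0. Over all genes, same-numbered arrays did not deviate together (r from -0.0355 to 0.0916 over 20 pairs, 0 over 0.1). A pairing with a small effect, or one confined to few genes, would not show there. Whether the numbers pair the samples is therefore not known. With the replicate block, 20 members were called at day 3, and 3 member calls were lost (Slc25a4 at day 3, Slc25a35 at day 7 and Slc25a11 from day 3 to day 7). Which clusters lie above background cannot be read from these values, so absence of a call for the 9 dim members says little.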
